A study of Mus musculus with 6 samples.

Results

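Ribosomal protein genes encode the protein part of the cytosolic ribosome and are among the most highly expressed genes of most cells. They were taken here as every row of the deposited count table whose symbol names a protein of the large (Rpl, Rplp) or small (Rps, Rpsa) subunit, leaving out the S6 kinases (Rps6k) and rows named as pseudogenes (-ps). The rule found 88 of 23282 rows, 53 for the large and 35 for the small subunit. Of these, 77 are the standard genes (46 large, 31 small), and the other 11 are paralogs, the retrogene copies Rpl37rt and Rps27rt, and Rps19bp1, which encodes a protein that binds Rps19 and is not itself a subunit. Another 7 rows named as pseudogenes were left out.

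The ribosome joins amino acids into protein: the small subunit holds the mRNA and its decoding centre, and the large subunit forms peptide bonds and carries the tunnel through which the new chain leaves. Subunits are assembled in the nucleolus from ribosomal RNA and proteins imported from the cytosol, in near equal numbers of each protein. Most mRNAs for these proteins start with a run of pyrimidines, the terminal oligopyrimidine (TOP) motif, through which the mTOR kinase and the RNA-binding protein Larp1 set how much of each is translated.

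The cells were alveolar macrophages, the resident phagocytes of the air spaces, sorted from mouse lung by CD45, CD11c, F4/80 and SiglecF in the absence of CD11b. The 3 wildtype libraries came from mice described only as wildtype, and the 3 Sdha-KO libraries from mice with floxed Sdha, the flavoprotein subunit of succinate dehydrogenase, and Cre driven by LysM, a promoter active in myeloid cells generally and not in alveolar macrophages alone. The labels give no strain, age, sex or Cre status of the controls. Each replicate number is also a batch number, so each of 3 batches holds 1 library per genotype. Nothing says whether a library is 1 mouse or a pool, so a p-value here weighs a difference against library-to-library spread, part of which may be technical.

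Total counts per library ranged from 5400160 to 8472907, and the ribosomal protein rows held 106418 to 459744 of them. Sdha itself had 457, 295 and 567 counts in wildtype and 313, 113 and 153 in Sdha-KO replicates 1 to 3; reads of a 3' kit can lie outside the floxed part, so these counts do not check the deletion. Both batch 1 libraries stood apart, with 7893 rows detected in the wildtype and 5438 in the Sdha-KO library, while the other 4 libraries had 11383 to 13050. Counts of Xist, transcribed from the inactive X chromosome, were 0, 4608 and 6055 in wildtype and 2683, 498 and 822 in Sdha-KO libraries, and those of the Y-linked Ddx3y were 222, 0 and 143 against 0, 354 and 432, with both genes above 0 in wildtype replicate 3 and Sdha-KO replicates 2 and 3. The part of sex in the results was not tested.

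A TOP-like start is shown for 7 genes, to set members with high and low fitted differences side by side, 5 of which had higher levels in every Sdha-KO library than in any wildtype library (Rps15a, Rps23, Rps2, Rps6 and Rpl27a) and 2 of which had small fitted differences (Rps27 and Rpl35). Each line gives 10 bases before and 20 bases from a transcription start listed by RefSeq on GRCm38.p6, 5′ to 3′ on the strand of the gene, with the run that opens with C and continues in C or T in capitals.
Rps15a: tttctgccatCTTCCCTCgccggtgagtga
Rps23: cggctgggcggggCTTCCCgcaatgccttg
Rps2: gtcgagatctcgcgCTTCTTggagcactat
Rps6: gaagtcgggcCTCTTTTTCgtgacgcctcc
Rpl27a: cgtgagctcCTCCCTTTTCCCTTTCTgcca
Rps27: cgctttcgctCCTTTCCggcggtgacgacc
Rpl35: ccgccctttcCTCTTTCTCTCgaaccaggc
These windows lie at chr7:118116128-118116157 (minus strand), chr13:90923112-90923141 (plus), chr17:24720053-24720082 (plus), chr4:86857348-86857377 (minus), chr7:109519185-109519214 (plus), chr3:90213629-90213658 (minus) and chr2:39005112-39005141 (minus). The run was searched for as at least 5 letters, opening with a C no more than 5 bases from a listed start. That C could lie inside a longer run, and the match nearest the start was kept. In Rps6, Rpl27a, Rps27 and Rpl35 the capitals therefore mark only the later part of a longer run. Such a match was found at 32 of 79 listed starts of ribosomal protein genes (40.5%) and at 18.3% of all 32851 listed starts. By gene, 30 of the 67 with a listed start had one (44.8%), against 21.2% of all genes. The 7 genes shown were picked among those with such a run. Among tested members the median log2 fold change was 0.39 over the 30 with such a start and 0.44 over the 36 without.

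Most ribosomal protein genes had higher levels in the Sdha-KO libraries, none past the threshold. Of 87 tested members (all but Rpl10l, with 1 count in all libraries), 81 had a positive log2 fold change of Sdha-KO over wildtype, against 45% of all 9963 tested genes, and 6 a negative one. The median was 0.43 over members and -0.13 over all genes. In edgeR's quasi-likelihood test none of the 87 passed an adjusted p of 0.05 in either direction, each at an adjusted p of 0.9998, where over all genes 0.0401% passed as higher and 0.01% as lower (0.0502% in all). At an unadjusted p under 0.05 there were 10 members, all higher, where 1.36% of all genes were higher and 1.28% lower. Of the 2293 genes at least as abundant as the lowest standard member, 120 were higher and 89 lower at that level. DESeq2 called none (all genes 0.12% higher and 0.0903% lower), with 3 at an unadjusted p under 0.05, where 332 of all 9963 genes were, a similar share. Limma-voom called 1, Rpl26, as higher (0.281% of all genes higher, 0.512% lower). In limma-voom 20 members had an unadjusted p under 0.05, against 986 of all 9963 genes. In these bulk libraries more cells of a type and more RNA per cell cannot be told apart.

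For 26 members every Sdha-KO library lay above every wildtype library, and for none did every Sdha-KO library lie below. Over all tested genes 5.04% lay above and 9.27% below, and among the 2293 genes at least as abundant as the lowest standard member 10.7% lay above and 49.9% had a positive log2 fold change. The 26 comprise 17 of 52 large-subunit members (among them Rpl7, Rpl12, Rpl15, Rpl17, Rpl22l1, Rpl23, Rpl27, Rpl27a, Rpl29, Rpl30, Rpl34, Rpl36a, Rpl37, Rpl37rt, Rpl39 and Rplp2) and 9 of 35 small-subunit members (among them Rps2, Rps6, Rps12, Rps15a, Rps19, Rps23 and Rps27a). Their fitted folds ran from 1.27 to 2.20. A fold above 1.5 was fitted for 30 members (25.5% of all genes) and one above 2 for 8 (15.9% of all genes). The median SE was 1.98 over all genes and 0.40 over members.

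**Figure D1:**
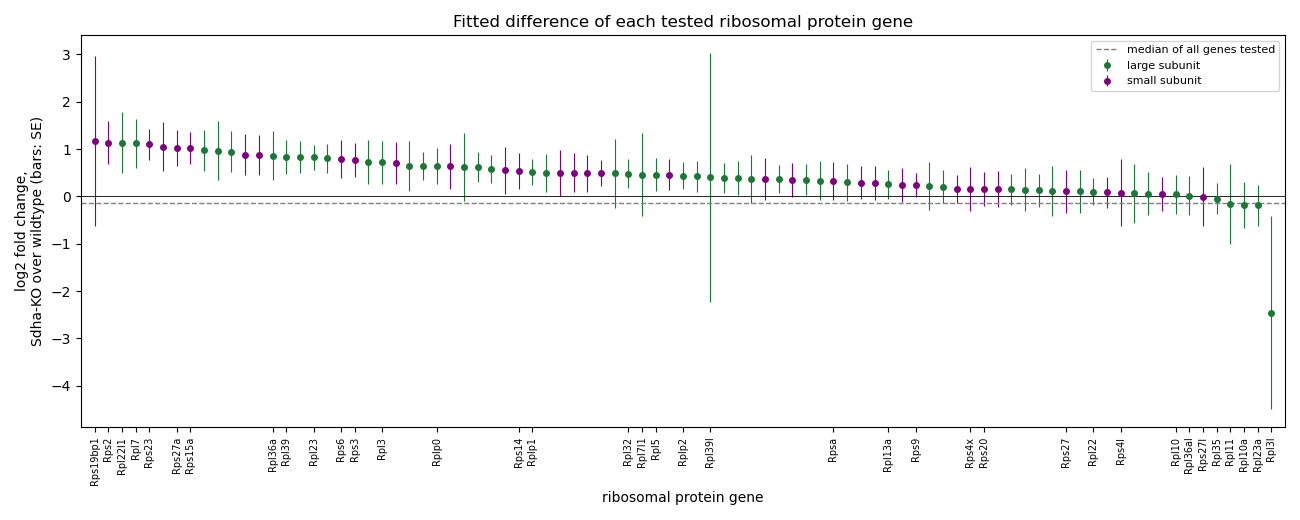
Log2 fold change of Sdha-KO over wildtype for each of the 87 tested ribosomal protein genes, ordered by size, with points for the estimate, bars for its SE, and colour for the subunit; genes given with every library's value by the naming rule are labelled. The dashed line is the median of all genes tested (-0.13); 81 points lie above 0, and the bars of Rpl39l, Rpl3l and Rps19bp1 are the widest.

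The 8 members fitted at over 2-fold were Rps2, Rps23, Rps15a, Rps21 and Rps27a of the small subunit, Rpl7 and Rpl22l1 of the large subunit or its paralogs, and Rps19bp1, which had 0 counts in wildtype replicate 1. Levels are in counts per 1000000 (CPM) scaled by edgeR's TMM factors, not divided by transcript length since the kit reads the 3′ end, and are given in the order of replicates 1 to 3. Rps2, a protein near the entrance of the mRNA channel, was at 58.6, 71.5 and 69.6 CPM in wildtype and 110.0, 192 and 137 CPM in Sdha-KO libraries (2.20-fold; log2 fold change 1.14 ± 0.46). The groups did not overlap and Sdha-KO replicate 2 was the highest. Rps23, which forms part of the decoding centre, was at 163, 213 and 187 CPM and 498, 374 and 332 CPM (2.14-fold; log2 fold change 1.10 ± 0.33). All Sdha-KO libraries were above all wildtype libraries, replicate 1 most. Rps15a, a protein of the body of the small subunit, was at 183, 354 and 370.0 CPM and 541, 644 and 651 CPM (log2 fold change 1.02 ± 0.34), again with no overlap, and its lowest value was wildtype replicate 1. Rps21 was at 51.8, 122 and 128 CPM and 347, 125 and 151 CPM (1.05 ± 0.52), with overlap and with Sdha-KO replicate 1 far above the rest. Rps23, Rpl23 and Rps15a had the smallest p-values among the members, each 0.9998 after adjustment in edgeR.

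The 3 small-subunit members with the highest CPM were Rps9, Rps20 and Rps14. Rps9, near the mRNA entrance, was at 1410, 1139 and 1256 CPM in wildtype and 1727, 1295 and 1451 CPM in Sdha-KO libraries (log2 fold change 0.23 ± 0.26). Rps20, a protein of the head of the small subunit, was at 1715, 743 and 997 CPM and 1805, 849 and 1191 CPM (0.15 ± 0.37). In both genes the batch 1 libraries were the highest of their genotype and the groups overlapped. Rps14, whose partial loss underlies the anaemia of the human 5q deletion syndrome, was at 1044, 407 and 591 CPM and 1305, 676 and 965 CPM (0.53 ± 0.38), higher in Sdha-KO in each batch but overlapping between groups. Leaving out wildtype replicate 2 or Sdha-KO replicate 1 turned the direction of Rps20, to -0.09 and -0.18.

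Among large-subunit genes the largest fitted differences were those of Rpl22l1, given with the paralogs, and Rpl7. Rpl7, a protein with an extended RNA-binding tail, was at 37.0, 66.8 and 53.9 CPM in wildtype and 137, 117 and 89.3 CPM in Sdha-KO libraries (2.17-fold; log2 fold change 1.12 ± 0.52), with no overlap. Rpl23, which sits at the subunit interface where Eif6 binds, was at 536, 513 and 526 CPM and 906, 995 and 885 CPM (1.77-fold; log2 fold change 0.82 ± 0.26). Its wildtype libraries lay close together and the Sdha-KO libraries were all well above them. Only 7.17% of the 50-base stretches in the last 300 bases of the Rpl23 transcript occur in another annotated gene. Rpl23 lies at chr11:97777527-97782437 on the minus strand of mm10.

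The most counts of any member went to Rplp1, with 8.79% to 12.5% of all ribosomal protein counts. Rplp1 and Rplp2 are the small acidic proteins of the stalk that recruits the elongation factors, and Rplp0 anchors them. Rplp1 was at 3793, 2076 and 2424 CPM in wildtype and 4729, 3386 and 3708 CPM in Sdha-KO libraries (log2 fold change 0.51 ± 0.28). It was higher in Sdha-KO in each batch, but wildtype replicate 1 exceeded Sdha-KO replicates 2 and 3. Rplp2 was at 711, 481 and 509.7 CPM and 798, 749 and 749 CPM (0.43 ± 0.28), without overlap. Rplp0 was at 379, 246 and 293 CPM and 697, 274 and 455 CPM (0.64 ± 0.38), with Sdha-KO replicate 1 far above the rest. After Rplp1, the large-subunit members with the highest mean CPM were Rpl22, given below, and Rpl32, at 530.4, 879 and 901 CPM and 849.7, 1204 and 1163 CPM (0.48 ± 0.30), with Rpl26, Rpl13 and Rpl37rt close behind at means of 894, 887 and 871 CPM against 921 CPM for Rpl32.

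Other members are given because their groups did not overlap, so that the lack of overlap is no finding about them. Rps19, the gene most often mutated in the human red cell disorder Diamond-Blackfan anaemia, was at 121, 73.0 and 69.0 CPM in wildtype and 168, 132 and 128 CPM in Sdha-KO libraries (0.70 ± 0.45). Rpl27 was at 106, 116 and 82.8 CPM and 280.4, 172 and 133 CPM (0.94 ± 0.43), highest in Sdha-KO replicate 1. Rpl15 was at 124, 97.0 and 100.2 CPM and 152, 171 and 133 CPM (0.50 ± 0.40), highest in Sdha-KO replicate 2.

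Rpl12, at the base of the stalk, was at 29.9, 43.5 and 48.3 CPM in wildtype and 53.0, 58.6 and 58.6 CPM in Sdha-KO libraries (0.48 ± 0.74). Rpl17, at the mouth of the exit tunnel, was at 60.7, 94.1 and 89.9 CPM and 173, 180.2 and 127 CPM (0.97 ± 0.43). Rps12, a protein of the beak of the small subunit, was at 67.0, 83.0 and 96.0 CPM and 139, 173 and 138 CPM (0.87 ± 0.43). In Rpl12 the groups lay closest together, with an SE above the fitted difference. Rpl27a, whose start is shown above, was at 643, 384 and 499.9 CPM and 824, 789.6 and 766 CPM (0.64 ± 0.29). Rpl34 was at 358, 539 and 441 CPM and 644, 889.6 and 799 CPM (0.80 ± 0.30). Rpl29 and Rpl30 had log2 fold changes of 0.97 ± 0.63 and 0.65 ± 0.53. Rpl26, given because limma-voom called it, binds p53 mRNA and was at 874, 520.4 and 534 CPM and 1622, 989.7 and 821 CPM (0.83 ± 0.34). It was higher in Sdha-KO in each batch, but wildtype replicate 1 exceeded Sdha-KO replicate 3.

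**Figure D2:**
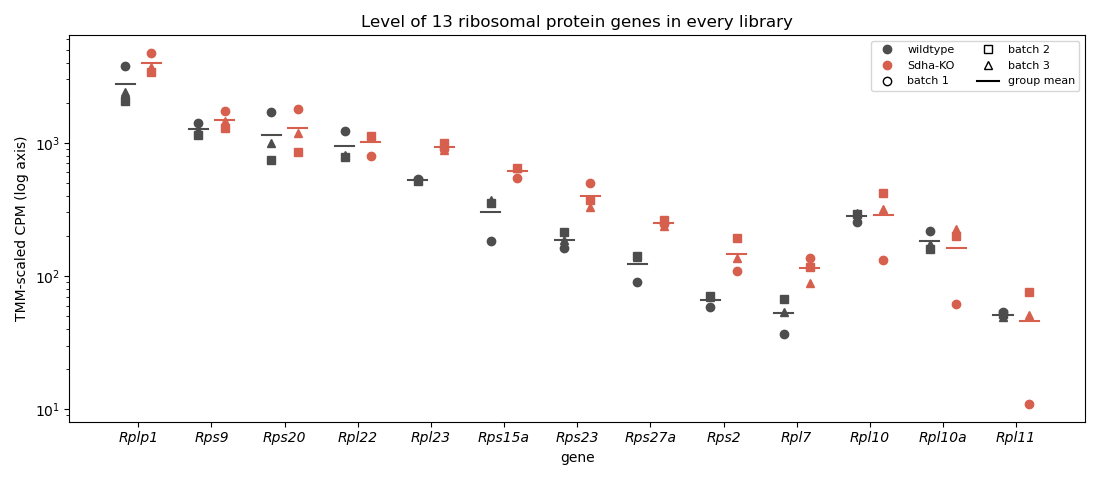
Level of 13 ribosomal protein genes in every library, as TMM-scaled CPM on a log axis, with colour for genotype, symbol shape for batch and short lines for group means. Rpl23, Rps15a, Rps23, Rps27a, Rps2 and Rpl7 have no overlap between genotypes, and in Rpl10, Rpl10a and Rpl11 the Sdha-KO library of batch 1 lies below all others.

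Several ribosomal proteins also act outside the ribosome or are themselves modified. Rps27a, made as a fusion with ubiquitin, was at 89.8, 140.2 and 139 CPM in wildtype and 247, 264 and 239 CPM in Sdha-KO libraries (2.03-fold; log2 fold change 1.02 ± 0.37). Rps6, the substrate of the S6 kinases downstream of mTOR, was at 82.0, 103 and 111 CPM and 156, 169.6 and 186 CPM (1.73-fold; 0.79 ± 0.40). Neither gene had overlapping groups. Rps3, at the mRNA entrance and also linked to DNA repair and NF-kB, was at 339, 423 and 429 CPM and 1035, 426 and 557 CPM (0.76 ± 0.36). Rpl13a, part of a complex that silences inflammatory mRNAs in myeloid cells, was at 454, 314 and 331 CPM and 458, 387 and 465 CPM (0.26 ± 0.31). Rpsa, also known as the laminin receptor, was at 209, 175 and 219 CPM and 132, 324 and 296 CPM (0.32 ± 0.40). In these last 3 the groups overlapped, and in Rps3 Sdha-KO replicate 1 was far above the other 5 libraries.

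Rpl5 and Rpl11 form a particle with 5S ribosomal RNA that can bind the p53 ligase Mdm2 when assembly is disturbed. Rpl5 was at 287, 183 and 202 CPM in wildtype and 234, 357 and 331 CPM in Sdha-KO libraries (0.46 ± 0.35). Rpl11 was at 53.6, 51.5 and 49.1 CPM and 10.9, 76.1 and 50.7 CPM (-0.16 ± 0.85), with Sdha-KO replicate 1 at the lowest and Sdha-KO replicate 2 at the highest value of all 6 libraries. For both, Sdha-KO was lower than wildtype in batch 1 and higher in batches 2 and 3. Without both batch 1 libraries, Rpl11 was at 0.34 and, with the block added, Rpl5 was among the members that passed the test.

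Batch 1 differed from the others across the members. Sdha-KO was higher for 57 of 87 members in batch 1, 84 in batch 2 and 80 in batch 3, against 29.9%, 47% and 48.7% of all genes. The median within-batch difference of log2(CPM + 0.5) was 0.36, 0.52 and 0.41 for members and -0.09, -0.09 and -0.03 for all genes. The members' differences had an SD of 1.39 in batch 1 against 0.36 and 0.33 in batches 2 and 3. The batch 1 value includes Rps19bp1 (6.49) and Rpl3l (-7.42), each with 0 counts in one library; the interquartile ranges were -0.26 to 0.89, 0.26 to 0.77 and 0.23 to 0.62. All 3 batches were higher for 52 members (11.4% of all genes), and batches 2 and 3 for 77 (28.1% of all genes). Of the 2293 genes at least as abundant as the lowest standard member, 23.2% were higher in all 3 batches. In batches 1 to 3 taken singly, 46.9%, 53.9% and 45.9% of those genes were higher. Of the 30 members lower in batch 1, 25 were higher in both other batches.

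Leaving out both batch 1 libraries moved these counts. All Sdha-KO values were then above all wildtype values for 65 of 87 members, against 20.4% of all genes with 2 libraries per group. No member passed in that fit, where 0.139% of all genes were called higher and 0.112% lower and 49.3% were positive. With the batch number added as a block, 13 passed, all higher (1.65% of all genes higher, 1.36% lower): Rpl23 (log2 fold change 0.86 ± 0.17, adjusted p = 0.00505 in edgeR), Rplp1, Rps15a, Rpl34, Rpl27a, Rpl26, Rps2, Rps14, Rpl14, Rpl5, Rps23, Rps27a and Rps4x. In edgeR the block with all 6 libraries called no member and no other gene, where the fit without it called 5 genes. In DESeq2 the same block called 72 genes and no member.

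**Figure D3:**
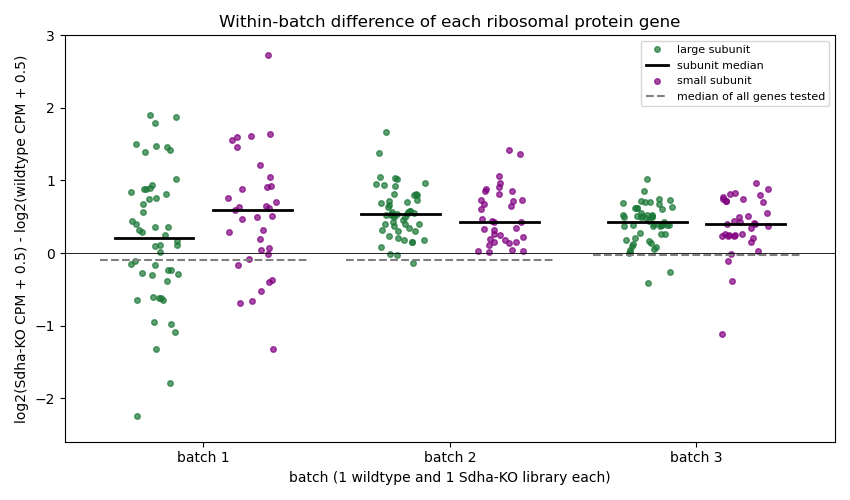
Difference of log2(CPM + 0.5) between the Sdha-KO and the wildtype library of each batch, 1 point per tested ribosomal protein gene, with colour for the subunit, black lines for subunit medians and dashed lines for the median of all genes. Points spread most in batch 1, where the values of Rps19bp1 (6.49) and Rpl3l (-7.42) lie outside the axis.

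The 6 members with negative fitted differences were all lower in Sdha-KO in that batch. Rpl10a, a protein of the stalk at the tRNA exit, was at 217, 161 and 173 CPM in wildtype and 62.2, 199 and 225 CPM in Sdha-KO libraries (-0.18 ± 0.48). Rpl23a, at the mouth of the exit tunnel, was at 132, 205 and 189 CPM and 84.0, 187 and 192 CPM (-0.18 ± 0.44). Rpl35, also at the tunnel exit, was at 441, 260.1 and 349 CPM and 336, 295 and 386 CPM (-0.05 ± 0.33). In all 3 the groups overlapped, and Rpl10a and Rpl35 were higher in Sdha-KO in batches 2 and 3. Without both batch 1 libraries Rpl10a, Rpl11 and Rpl35 turned to 0.36, 0.34 and 0.17, and with all 6 libraries only the fitted difference of Rpl3l exceeded its own SE. The other negative members are Rpl11, above, and the paralogs Rps27l and Rpl3l.

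Some paralogs of ribosomal proteins are tissue-restricted copies that can take the place of the main protein. Rpl22l1, whose mRNA the RNA-binding Rpl22 protein is known to hold down, was at 36.9, 28.8 and 51.6 CPM in wildtype and 129, 75.5 and 53.5 CPM in Sdha-KO libraries (2.20-fold; 1.14 ± 0.65), with a narrow gap between wildtype replicate 3 and Sdha-KO replicate 3. Rpl22 was at 1223, 779.6 and 812 CPM and 799, 1121 and 1099 CPM (0.10 ± 0.29), overlapping; without wildtype replicate 2 its sign turned, to -0.024. The log2 ratio of Rpl22l1 over Rpl22 was -5.03, -4.73 and -3.96 in wildtype and -2.63, -3.88 and -4.35 in Sdha-KO libraries, 0.96 higher on average (exact two-sided permutation p = 0.2, 0.667 after Benjamini-Hochberg adjustment over 10 pairs). With 3 against 3 such a test cannot give a p below 0.1. Without both batch 1 libraries the difference was 0.23.

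Rpl3 helps shape the site of peptide bond formation, and Rpl3l replaces it in skeletal and heart muscle. Rpl3 was at 71.1, 209 and 224 CPM in wildtype and 199, 336 and 293 CPM in Sdha-KO libraries (0.72 ± 0.46). Rpl3l was at 85.4, 6.66 and 14.0 CPM and 0, 8.93 and 10.4 CPM, so that its fitted difference of -2.45 ± 2.04 rests on wildtype replicate 1 and on a count of 0 in Sdha-KO replicate 1. The log2 ratio of Rpl3l over Rpl3 was 0.26, -4.87 and -3.95 in wildtype and -8.64, -5.16 and -4.75 in Sdha-KO libraries, a mean difference of -3.33 with overlap (exact permutation p = 0.2, adjusted 0.667). Without both batch 1 libraries it was -0.54.

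The X-linked Rpl36a was at 33.3, 95.2 and 89.9 CPM in wildtype and 126, 142 and 129 CPM in Sdha-KO libraries (0.86 ± 0.51), with no overlap, and its autosomal copy Rpl36al at 175, 127 and 104 CPM and 155, 145 and 109.5 CPM (0.02 ± 0.41). Their log2 ratio, Rpl36al over Rpl36a, was 2.37, 0.42 and 0.20 and 0.30, 0.03 and -0.24 (exact permutation p = 0.2, adjusted 0.667). Without both batch 1 libraries the difference of that ratio went from -0.97 to -0.42. Rpl39, a small protein that lines the exit tunnel, was at 111, 172 and 153 CPM and 296, 226 and 254 CPM (0.83 ± 0.37), without overlap. Its testis copy Rpl39l was at 2.21, 2.44 and 0 CPM and 0.584, 5.58 and 0 CPM, from 66 counts in all 6 libraries, and had 0 counts in wildtype and Sdha-KO replicate 3. Where a count is 0, counting error alone allows up to 3 counts, or 0.250 to 0.666 CPM over the libraries.

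Rpl10, a protein added late in the cytosol that contacts the tRNAs, was at 256, 292 and 297 CPM in wildtype and 132, 418 and 318 CPM in Sdha-KO libraries (0.04 ± 0.41), with Sdha-KO replicate 1 lowest and replicate 2 highest; its sign turned with the block, to -0.11. Its testis copy Rpl10l had 1 count and no ratio is given for it. Rpl7l1, related to Rpl7, was at 49.6, 18.4 and 38.6 CPM and 32.5, 59.7 and 54.4 CPM (0.46 ± 0.87). Rps27 was at 104, 104 and 117 CPM and 72.3, 139 and 139 CPM (0.11 ± 0.45), and Rps27l, a p53 target, at 63.0, 77.9 and 57.9 CPM and 47.7, 106 and 44.4 CPM (-0.01 ± 0.62). The X-linked Rps4x was at 251, 125 and 133 CPM and 100.1, 245 and 223 CPM (0.16 ± 0.46), and its copy Rps4l at 77.2, 35.1 and 73.7 CPM and 122, 40.9 and 33.8 CPM (0.08 ± 0.70). In all of these the groups overlapped, and in Rpl10, Rps27 and Rps4x the Sdha-KO library of batch 1 was the lowest of the 6. Of the 10 pairs none had groups of ratios without overlap, and none passed after adjustment (smallest adjusted p 0.667, exact permutation). That test leaves the batch aside. Within batches 1 to 3 the ratio of Rpl36al over Rpl36a differed by -2.07, -0.39 and -0.44, and that of Rpl3l over Rpl3 by -8.90, -0.29 and -0.79, lower in Sdha-KO each time. The ratios of Rpl37rt over Rpl37 (0.39, 0.08 and 0.14) and Rps27rt over Rps27 (0.15, 0.0070 and 0.16) were higher each time. These 4 pairs were picked because their 3 batches had the same direction. For any such pair an exact test over sign changes must give p = 0.25, so it tells nothing further about them.

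**Figure D4:**
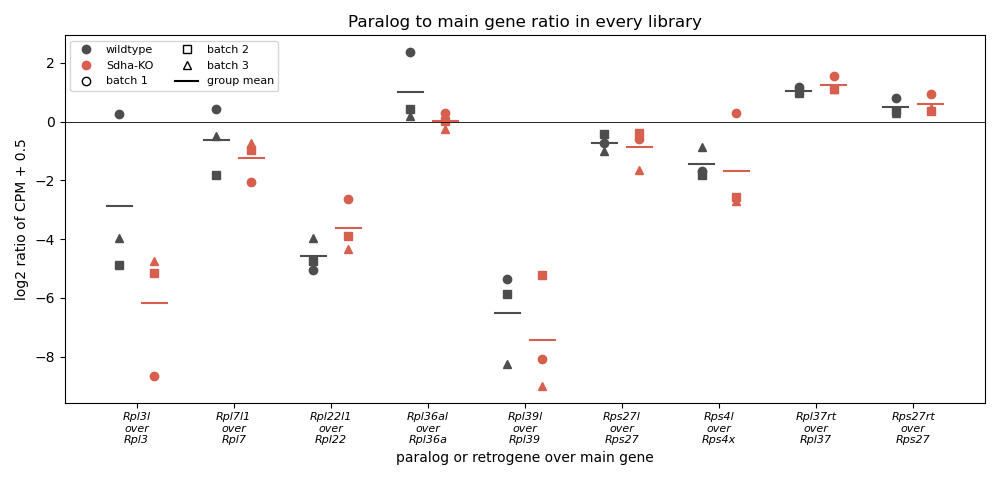
Log2 ratio of CPM + 0.5 of each paralog or retrogene over its main gene in every library, with colour for genotype, symbol shape for batch and short lines for group means. All 9 pairs shown overlap between genotypes, and the ratios of batch 1 lie far from the other batches in wildtype for Rpl3l and Rpl36al and in Sdha-KO for Rpl3l and Rps4l.

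Rpl37rt and Rps27rt are named as retrogene copies of Rpl37 and Rps27. Rpl37rt was at 824, 624 and 641 CPM in wildtype and 1385, 826 and 925 CPM in Sdha-KO libraries, and Rpl37 at 366, 309 and 326 CPM and 471, 386 and 429 CPM. Rps27rt was at 182, 132 and 146 CPM and 140.0, 178 and 192 CPM. In the last 300 transcript bases 88.4% of the 50-base stretches of Rps27rt and all of those of Rps27 occur in another gene, each being the other's closest match, so their counts cannot be told apart. Rps19bp1, the Rps19-binding protein, had the largest positive fitted difference, 1.17 ± 1.79, from 0, 9.76 and 36.5 CPM and 44.6, 25.8 and 34.0 CPM, and rests on 0 counts in wildtype replicate 1.

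Shared sequence of this kind is common in the family. Of 86 members annotated in GENCODE M21 on mm10, 63 shared at least one 50-base stretch of their last 300 bases with another gene, up to 65 other genes for Rpl7a. The 47 tested members with at least 50% shared had a median log2 fold change of 0.46, and 17 lay above wildtype in every library. The 27 with under 10% shared had a median of 0.43, with 25 higher and 6 above wildtype in every library. Over all tested genes 5.04% lay above wildtype in every library, and 10.7% of those at least as abundant as the lowest standard member. The part of shared reads in these values was not tested. Within 30 tested members lie small nucleolar RNA genes (58 in all), most of which guide modification of ribosomal RNA; their median was 0.47 against 0.39 in the 55 annotated members without one, and 12 of 30 against 13 of 55 lay above wildtype in every library. Exons of 39 tested members overlap those of another gene, and without knowing the use of strand such reads cannot be told apart; the medians were 0.43 with and 0.43 without overlap.

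In the 300 bases around the start (250 before and 50 after), CCGGAAG, the core letters bound by ETS factors, was found on either strand at 34.2% of the 79 listed starts and at 8.86% of all starts. TCTCGCGA, also searched on both strands, was found at 15.2% against 0.995%. Matches to these 2 motifs cannot overlap each other, and a place matched on both strands counts once. The median log2 fold change was 0.42 over the 26 tested members with CCGGAAG and 0.41 over the 40 without, and 0.50 over the 11 with TCTCGCGA and 0.39 over the 55 without.

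Large- and small-subunit genes had similar fitted differences, which were not tested against each other. The median log2 fold change was 0.41 over 52 large-subunit members, 47 of them positive, and 0.49 over 35 small-subunit members, 34 of them positive. Within batches 1 to 3 the medians were 0.21, 0.54 and 0.43 for the large and 0.59, 0.43 and 0.40 for the small subunit, so their order changed between batches. The ratio of summed large- to small-subunit counts was 1.58, 1.61 and 1.55 in wildtype and 1.48, 1.79 and 1.64 in Sdha-KO libraries. These overlapped, and Sdha-KO replicates 1 and 2 were the lowest and the highest of all 6.

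Together the members took 2.99%, 1.83% and 2.53% of all counts in wildtype and 5.43%, 3.41% and 3.29% in Sdha-KO libraries, each Sdha-KO library above each wildtype library. Such a share depends on the other rows, and the 45S precursor row Rn45s held 36.3%, 57.6% and 44.7% in wildtype and 20.9%, 43.4% and 48.2% in Sdha-KO libraries. Leaving out Rn45s, Rn4.5s and Lars2, which can collect reads of ribosomal RNA, the shares were 5.50%, 4.42% and 4.67% against 7.34%, 6.07% and 6.39%, again without overlap. The 10 members with the most counts held 45.3% and 44.1% of the members' counts in the batch 1 libraries, wildtype first, and 36.9% to 37.3% in the other 4.

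**Figure D5:**
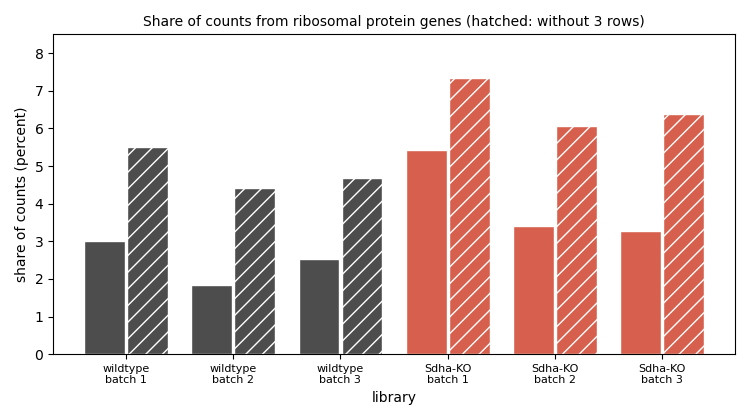
Share of each library's counts that fell in ribosomal protein genes, in percent, as bars from 0 with 1 pair per library and colour for genotype. Plain bars are of all counts and hatched bars of counts without the rows Rn45s, Rn4.5s and Lars2; in both, the 3 Sdha-KO bars are above the 3 wildtype bars.

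The other parts of the translation machinery gave a mixed picture, with none of the 195 tested genes in these 8 lists past the threshold in edgeR. At an unadjusted p under 0.05 there were 7 higher and 0 lower (1.36% and 1.28% of all genes). DESeq2 called none, with 2 higher and 0 lower before adjustment, where 332 of all 9963 genes were under 0.05. Limma-voom called 2, Nolc1 as lower and Cdkn1a as higher. Before adjustment it had 10 higher and 20 lower, where 986 of all 9963 genes were under 0.05. Nolc1, a nucleolar phosphoprotein, had 910, 431 and 599 counts in wildtype and 23, 459 and 499 in Sdha-KO libraries, low only in Sdha-KO replicate 1. Other ribosome components numbered 3 tested, all with positive log2 fold changes, among them Gnb2l1, the scaffold Rack1, at 0.72 ± 0.34. Of 8 elongation factors 6 were positive (median 0.39), with Eef2 at 1.12 ± 0.48 and Eef1a1 at 0.72 ± 0.53. Of 23 mRNAs known to carry a TOP motif but not encoding ribosomal proteins, 20 were positive (median 0.55) and 6 lay above wildtype in every library, against 5.04% of all genes. The 2 with the highest CPM were Vim, at 0.15 ± 0.52, and Pabpc1, the poly(A)-binding protein, at -0.18 ± 0.47. Some genes stand in more than one of these lists, and the lists include the members Rps19bp1 and Rpl7l1.

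Of 38 initiation factors 28 were positive (median 0.32); Pabpc1 and Eif3a (0.17 ± 0.38) had the highest CPM. Of the factors that assemble ribosomes, 28 of 72 were positive and 44 negative (median -0.17, near the -0.13 over all genes), with 8 below and 1 above wildtype in every library, where 9.27% of all genes lay below and 5.04% above. The members Rps19bp1 and Rpl7l1, both positive, are counted among these 72. Ncl, nucleolin, was at 0.17 ± 0.41, and Ddx21, a nucleolar helicase, at -0.34 ± 0.31. RNA polymerase I and its factors, which transcribe the ribosomal RNA precursor, had 7 of 20 positive (median -0.32); Taf1d was at -0.72 ± 0.51 and Cd3eap at -0.01 ± 0.62. The TOR pathway and TOP regulators had 17 of 30 positive (median 0.38); Larp1 was at -0.33 ± 0.58 and Lamtor1 at 0.54 ± 0.49. Ribosome quality control and nucleolar stress genes had 8 of 16 positive (median -0.13), with Cdkn1a, the cell cycle inhibitor induced by p53, at 1.44 ± 0.30 (adjusted p = 0.285 in edgeR) and Edf1 at 0.50 ± 0.44.

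Markers of the sorted and of other cell types were set beside these results. All 14 alveolar macrophage markers were tested. Their summed level was 8910 to 10466 CPM in wildtype and 7446 to 9843 CPM in Sdha-KO libraries. Sdha-KO differed from wildtype by -1464, -27.2 and -2645 CPM in batches 1 to 3, so hardly at all in batch 2. Ear1 fell (log2 fold change -2.26 ± 0.32, adjusted p = 0.0261 in edgeR). DESeq2 called Ear1 as well, and limma-voom called Ear1 and Ear2 as lower and Car4 as higher. Of the 14, 5 had positive and 9 negative log2 fold changes. In every library 5 lay below and 1 above wildtype, where 9.27% of all genes lay below and 5.04% above. Siglecf, used in the sort, had 841, 620 and 1038 counts in wildtype and 0, 213 and 304 in Sdha-KO libraries (log2 fold change -2.14 ± 1.66).

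T cell markers summed to 268 to 524 CPM in wildtype and 92.8 to 197 CPM in Sdha-KO libraries, nearly all of it Cd2, with Cd3e and Cd3g at 0 in 5 of 6 libraries, and 1 of 3 tested was positive. Conventional dendritic cell markers summed to 48.5 to 69.1 against 49.2 to 293 CPM, with 6 of 7 tested positive and Zbtb46 at 0 in 5 libraries. Their sum differed by 0.707, 91.0 and 224 CPM in batches 1 to 3, so hardly at all in batch 1. Erythroid markers summed to 191 to 337 against 146 to 519 CPM, with 6 of 6 positive. Monocyte and interstitial macrophage markers summed to 93.9 to 194 against 79.5 to 228 CPM, with 6 of 7 positive and Ly6c2 at 0 in 5 libraries. Neutrophil markers summed to 54.6 to 91.8 against 75.1 to 128 CPM, with 2 of 2 positive. Lung epithelial markers summed to 229 to 417 against 118 to 713 CPM, with 4 of 7 positive. B cell markers summed to 0 to 23.3 against 0 to 27.6 CPM, with 2 of 4 positive and Pax5 at 0 throughout. None of these 36 tested genes passed in edgeR (0 higher and 1 lower at an unadjusted p under 0.05) or DESeq2 (2 higher and 1 lower), and limma-voom called Cd2 as lower (0 higher and 3 lower before adjustment). Their part in the levels of ribosomal protein genes was not tested.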

How the data were processed

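RNA of 6 sorted mouse alveolar macrophage samples was sequenced with a QuantSeq 3′ kit, per the labels' protocols. The deposited table holds raw counts per gene; Bowtie2, bedtools and mm10 are named in the submitters' processing notes, while the sources used here do not give versions, annotation, use of strand or the handling of reads that map to several places. The 6 columns were matched to samples by name, and no other column of values was present (0).

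The members, gene lists and tests were chosen with earlier results of these data known. Genes with at least 10 counts by edgeR's filterByExpr were kept (9963 of 23282), scaled by TMM and tested with edgeR 4.0.16 (quasi-likelihood, robust) in R 4.3.3, with Benjamini-Hochberg adjustment over all of them and a threshold of 0.05; SE is the log2 fold change divided by the square root of F. The procedure was also run on simulated counts with less library-to-library spread than these data and larger changes than most members had. That run does not show what could be detected here. Alternatives were other scalings and filters, DESeq2 1.42.0, limma-voom (limma 3.58.1), a batch block, and each library or both batch 1 libraries left out. The replicate number is a batch number in the labels, and deviations from group means correlated at 0.150, 0.124 and 0.114 within numbers and at -0.149 to 0.0996 across them. Paralog ratios used log2(CPM + 0.5) and an exact permutation test. Gene models were GENCODE M21 on mm10, and start windows RefSeq on GRCm38.p6.

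Members given with every library's value were the 3 most abundant of each subunit, the stalk proteins, both genes of each paralog pair, 7 with roles outside the ribosome or known modification, the 4 largest differences in each direction at 10 CPM or more, the 3 smallest p-values, and all with a negative difference; from each other list, up to 3 past the threshold, else the 2 most abundant. Rpl26, Rps21, the members without overlap that this rule does not cover, Rpl37, the retrogenes, Rps19bp1, Nolc1, Siglecf and Cd2 were added after their values were seen. Some genes are not reported by name here.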

Additional observations from a re-analysis of the deposited data

Results flagged for a closer look

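The 7 rows named as pseudogenes were left out of the members but were tested in the fit over all genes. Among them, 2 held more signal in every Sdha-KO library than in any wildtype library. Rpl34-ps1 had a mean of 742 CPM in Sdha-KO and 430 CPM in wildtype libraries (log2 fold change 0.79 ± 0.30, adjusted p = 0.9998 in edgeR). Rps15a-ps6 had a mean of 68.0 CPM in Sdha-KO and 35.9 CPM in wildtype libraries (0.92 ± 0.71, adjusted p = 0.9998 in edgeR). The counts of Rpl34-ps1 (2757, 2355 and 3375 in wildtype and 7195, 4585 and 5178 in Sdha-KO libraries) are close to those of Rpl34 (2922, 2429 and 3467, and 7716, 4784 and 5358), and Rpl34-ps1 is the gene that shares most of the Rpl34 3′ end, so the same reads may be counted in both. Rpl34-ps1 cannot be taken as separate from Rpl34. Rps15a also shares 77.3% of its 3′ end stretches with other genes, most often with Rps15a-ps7. Whether Rps15a-ps6 holds reads of Rps15a was not tested.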

How the results depend on the processing

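No member was called with all 6 libraries except Rpl26 in limma-voom (1 member, adjusted p 0.047). The replicate block called 13 once both batch 1 libraries were left out. Genes called over the whole table numbered 5, and 9 with library totals alone, 48 with no filter, 0 with the stricter filter, 21 with DESeq2, 72 with DESeq2 and the replicate block, 79 with limma-voom, 0 with the replicate block, 27 when both batch 1 libraries were left out and 324 if the block was then added. The members' median was 0.67 with library totals (all genes 0.05, a shift of 0.19) and 0.51 without batch 1 and with the replicate block. Members above wildtype in every library numbered 65 without batch 1, with or without the block. The cause of these differences was not tested.

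Leaving out 1 library at a time gave 0 to 13 genes and 0 members called, a median of 0.33 to 0.53, 72 to 80 members higher, and 26 to 45 above wildtype in every library (41 without wildtype replicate 1, where 6.72% of all genes were above, and 45 without Sdha-KO replicate 1, where 15.5% were, against 5.04% with all 6). The share of counts differed by 0.89 to 1.96 points and the large to small ratio by -0.0215 (without Sdha-KO replicate 2) to 0.137. Of 37 named members tested, 23 kept their sign in every setting. The others ranged, leaving out 1 library, from -0.024 to 0.33 (Rpl22), -0.18 to 0.55 (Rps20), -0.31 to 0.39 (Rpl10), -0.041 to 0.36 (Rps27), -0.069 to 0.55 (Rps4x), -0.15 to 0.24 (Rpl36al), -2.32 to 0.98 (Rpl39l), -0.52 to 0.21 (Rps27l), -0.73 to 0.39 (Rps4l), -0.73 to 0.30 (Rpl11), -0.38 to 0.12 (Rpl23a), -0.49 to 0.21 (Rpl10a) and -0.23 to 0.15 (Rpl35). Ratios ranged from -0.40 to 0.22 (Rps27l/Rps27), -1.18 to 0.31 (Rps4l/Rps4x) and -0.075 to 0.26 (Rps27rt/Rps27).

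Other settings that turned a sign were library totals (Rps27l 0.26, Rpl23a 0.025, Rpl35 0.20), TMM without members (Rps27l 0.0015), no rows Rn45s, Rn4.5s and Lars2 (Rpl36al -0.018), no filter (Rps27l 0.013), the stricter filter (Rps27l 0.030), limma-voom (Rpl10 -0.30, Rps27 -0.083, Rps4x -0.081, Rpl39l -0.16), the replicate block (Rpl10 -0.11, Rpl39l -0.30, Rps4l -0.072) and DESeq2 with that block (Rpl10 -0.11, Rpl39l -0.17, Rps4l -0.075). Without both batch 1 libraries the values were Rps27l 0.16, Rps4l -0.53, Rpl11 0.34, Rpl10a 0.36, Rpl35 0.17 and Rpl7l1/Rpl7 0.32, and with the replicate block Rpl3l 0.0045, Rps27l 0.043, Rps4l -0.45, Rpl11 0.31, Rpl10a 0.36 and Rpl35 0.17. There were 3 libraries per group with 5400160 to 8472907 counts each, 20.9% to 57.6% of them of Rn45s. Differences well under the members' median SE of 0.40 were not detectable, and larger ones did not pass either with all 6 libraries in edgeR. Rps23 at 1.10 ± 0.33 and Rpl23 at 0.82 ± 0.26 each had an adjusted p of 0.9998 in edgeR.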
